A study of Mus musculus with 12 samples.

Results

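The genes described here encode the claudins, the connexins and their close partners at tight junctions, measured in mouse mammary tumors. They were taken by symbol: every gene named Cldn or Gja to Gje with a number, the zonula occludens scaffolds (Tjp), and Ocln, F11r, Marveld2 and Cgn. This gave 60 genes of the 21960 listed, made up of 33 claudins, 20 connexins, 3 zonula occludens scaffolds and 4 other tight junction genes.

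Whole snap-frozen mammary tumors of female C57BL/6 mice were profiled by RNA sequencing. The mice carry the polyoma middle T transgene (PyMT), which the MMTV promoter drives in mammary epithelium, so that tumors arise on their own. There were 12 tumors in 4 groups of 3. The IgG1 group received an isotype control antibody, and the anti-PD-1 group an antibody that blocks the T cell receptor PD-1, first at 20 mg/kg and later at 10 mg/kg, once a tumor measured 0.6 cm. The DOX/IgG1 and DOX/anti-PD-1 groups received 5 mg/kg doxorubicin, a DNA-damaging topoisomerase poison, followed by the same antibodies at 10 mg/kg, once a tumor measured 1 cm. The labels give 5 weeks of treatment for each group. In the paper, antibody alone was given at shorter intervals and over a shorter time than the weekly doxorubicin and antibody. Starting tumor diameter, treatment schedule and antibody dosing therefore changed together with doxorubicin, and these cannot be told apart from doxorubicin. The labels do not tie each tumor to its own mouse, so p-values measure only the spread between these tumors.

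Claudins are the membrane proteins that build the strands of tight junctions, and they set which ions and solutes pass between epithelial cells. Occludin and tricellulin sit in the same strands, and zonula occludens proteins tie them to actin. Connexins form gap junction channels that let small molecules pass between neighboring cells, in the mammary gland between luminal cells and between myoepithelial cells.

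Levels are given in TPM, a relative abundance per transcript length, so that they can be set side by side between genes. The listed genes sum to between 609418 and 725506 TPM per tumor, and the sequencing depth behind them is unknown. The 8 luminal epithelial markers (Krt8, Krt18, Krt19, Epcam, Cdh1, Elf5, Ehf and Elf3) were above 0 in each of the 12 tumors and summed to between 2636 and 4065 TPM, so the labelled tissue had its defining markers. The tumor DOX/IgG1 replicate 1 had the lowest median correlation with the other 11 tumors, 0.94, and DOX/anti-PD-1 replicate 3 was next to it at 0.944. The first also had the lowest median correlation with its own group, 0.93. Its luminal markers did not go 1 way. Elf3 was at 5.86 TPM against 12.8 TPM or more elsewhere, and the summed luminal level, 2834 TPM, was the lowest of its group. Epcam at 565 TPM and Cdh1 at 398 TPM were the highest of its group. The main results that rest on DOX/IgG1 replicate 1 are given with and without it, and leaving out DOX/anti-PD-1 replicate 3 called no member in the 4 comparisons it enters.

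Of the 60 genes, 16 were listed at 0 in each of the 12 tumors. A further 12 reached 1 TPM in fewer than 3 tumors, and 32 reached it in at least 3. Of these 32, 16 had a mean of at least 10 TPM: 7 claudins, 2 connexins and all 7 scaffolds and partners. Some levels are uncertain because reads can be shared. Of the 75-base stretches of Cldn24, 67.6% also occur in Cldn22, and 10.6% of those of Cldn34c1, 12.5% of those of Cgn and 12.4% of those of Gja5 occur in other genes. Exons of Cldn3 overlap Wbscr25 and those of Tjp3 overlap Apba3 on the opposite strand, and whether the counting used strand is not given in the sources used here.

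**Figure D1:**
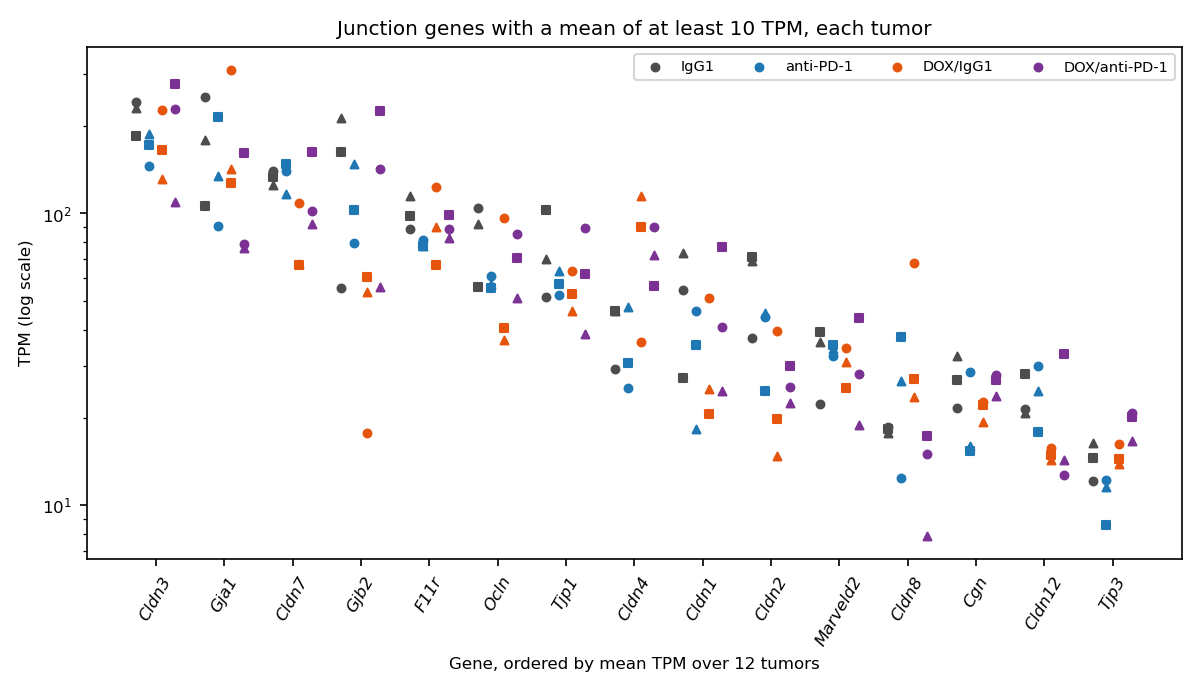
Level in TPM on a log axis of 15 junction genes with a mean of at least 10 TPM, for each tumor, colored by group. Circles, squares and triangles are replicates 1, 2 and 3. Cldn3 has the highest mean, and DOX/IgG1 replicate 1 is the lowest point for Gjb2 and the highest for Cldn8.

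Cldn3, a sealing claudin of epithelia, had the highest mean of all members, with a lowest level of 109.9 TPM, a median of 186 TPM and a highest of 278 TPM over the 12 tumors. It held between 30.0% and 42.9% of the summed claudin level. Cldn7, which also lines the sides of epithelial cells, followed among claudins with a median of 121 TPM. With Cldn4, Cldn1, Cldn2, Cldn8 and Cldn12 these made the 7 claudins with a mean above 10 TPM. The summed level of the 33 claudins (mean ± SD, n = 3) was 569.5 ± 43.4 TPM for IgG1 and 482 ± 11.5 TPM for anti-PD-1. For DOX/IgG1 it was 473 ± 78.4 TPM and for DOX/anti-PD-1 532 ± 159.9 TPM, and the widest spread was in the last group.

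Gja1 and Gjb2 carried most of the connexin level. Gja1 encodes connexin 43, a connexin of myoepithelial and stromal cells, and its median was 138 TPM, with a lowest level of 76.3 TPM and a highest of 309 TPM. Gjb2 encodes connexin 26, a luminal connexin, with a median of 91.0 TPM, a lowest of 17.7 TPM and a highest of 225 TPM. Gja1 held between 31.8% and 85.3% of the summed connexin level and Gjb2 between 4.89% and 57.4%. Both extremes of high Gja1 share and low Gjb2 share were DOX/IgG1 replicate 1.

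In bulk tumors fewer cells of a type and less RNA per cell cannot be told apart, which holds for every difference described next. The first question was how doxorubicin given with the control antibody related to these genes. On average Cldn7, Gjb2 and Cldn2 were lower and Cldn8 was higher in DOX/IgG1 than in IgG1 tumors, but none of the 31 members tested was called. A gene was called at an adjusted p below 0.1 in limma with an absolute log2 fold change above 1. Of all 13874 genes tested 5 were called, which is 0.036%, and 4 members and 1073 genes had an unadjusted p below 0.05. The called genes, named after their values were seen, were Smr3a and Bpifa2, which were higher, and Saa1, Saa2 and Hist1h2af, which were lower. When each of the 6 tumors was left out in turn, Smr3a, Bpifa2 and Saa2 were called 1 time, without DOX/IgG1 replicate 1, and Saa1 and Hist1h2af 2 times, with limma adjusted p up to 0.317. The median log2 fold change was -0.072 over the members and 0.12 over all genes tested.

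Cldn7 stood at 140, 133 and 125 TPM with IgG1, while DOX/IgG1 gave 108, 66.4 and 67.2 TPM. Each DOX/IgG1 tumor lay below each IgG1 tumor. The log2 fold change was -0.75 ± 0.25 (SE, n = 3 per group, limma adjusted p = 0.547), and the exact permutation test gave p = 0.1, the smallest that 3 against 3 tumors allow. Without DOX/IgG1 replicate 1 it was -0.98 (limma adjusted p = 0.14). Groups did not overlap, with lower levels in DOX/IgG1, for 3 of 31 members, against 4.64% of all genes tested. Among these were Cldn7 and, named after its values were seen, Cldn12.

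Cldn8, a barrier claudin, was the 1 member whose groups did not overlap with higher levels, against 9.31% of all genes tested. It stood at 18.5, 18.3 and 17.6 TPM with IgG1, while DOX/IgG1 gave 67.7, 27.1 and 23.4 TPM. The highest of these is replicate 1. The log2 fold change was 0.92 ± 0.40 (SE, n = 3 per group, limma adjusted p = 0.639), and without that tumor it was 0.45 (limma adjusted p = 0.549).

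Cldn2, a claudin that forms cation and water pores, stood at 37.5, 71.0 and 68.7 TPM with IgG1, while DOX/IgG1 gave 39.6, 19.8 and 14.7 TPM. The groups overlapped through the first tumor of each. The log2 fold change was -1.29 ± 0.41 (SE, n = 3 per group, limma adjusted p = 0.514), and -1.68 without DOX/IgG1 replicate 1 (limma adjusted p = 0.111). Gjb2 stood at 55.4, 163 and 212 TPM with IgG1, while DOX/IgG1 gave 17.7, 60.4 and 53.8 TPM. These groups overlapped too, through the lowest IgG1 tumor. Its log2 fold change was -1.66 ± 0.58 (SE, n = 3 per group, limma adjusted p = 0.56), and -1.11 without DOX/IgG1 replicate 1 (limma adjusted p = 0.396).

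Beside Cldn7, Cldn2 and Gjb2, 7 of the 8 luminal genes had a negative log2 fold change, with a median of -0.30, and none was called in limma, with Epcam the 1 at an unadjusted p below 0.05. Epcam, the most abundant of them, was at 938, 846 and 954 TPM with IgG1, against 565, 522 and 418 TPM with DOX/IgG1. The summed luminal level overlapped between the groups, at 4065, 3278 and 3807 TPM with IgG1, against 2834, 3559 and 3988.5 TPM with DOX/IgG1, and the part of luminal cells in the levels of these members was not tested.

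All 6 genes of the milk secretion list also had a negative log2 fold change, with a median of -1.81, and none was called in limma, with 3 at an unadjusted p below 0.05. Their summed level, with Csn3 the most abundant, was 7456, 4765 and 8467 TPM with IgG1, against 909, 3216 and 2499 TPM with DOX/IgG1. Wap, a defining whey protein gene, was listed at 0 in 1 IgG1 and 2 DOX/IgG1 tumors. The part of secretory cells in the junction gene levels was not tested. Of the 5 salivary gland genes found, 2 were called with all 6 tumors in the fit, Smr3a and Bpifa2, both listed at 0 in each IgG1 tumor and above 10 TPM in each DOX/IgG1 tumor. The summed salivary level, with Aqp5 the most abundant, was 450.3, 398 and 417 TPM with IgG1, against 304, 349 and 393 TPM with DOX/IgG1. That sum is lower through Aqp5, while the other 4 genes had a positive log2 fold change, and the part of salivary tissue in the junction gene levels was not tested. Beside the same members, 6 of 7 basal or myoepithelial, 5 of 6 adipocyte and 6 of 7 tested leukocyte genes had a positive log2 fold change, against 60.6% of all genes tested, with 0 at an unadjusted p below 0.05. Negative were 4 of 7 fibroblast and 6 of 9 endothelial genes, with Col1a1 and Cdh5, both lower with groups that did not overlap, at an unadjusted p below 0.05, and the sums of these 5 lists overlapped between the groups. No gene of them was called in limma, and their part in the member levels was not tested.

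Under anti-PD-1 the same question was asked of other tumors, none of them shared with the comparison just described. Cldn4, Cldn5 and Tjp3 were higher in each DOX/anti-PD-1 tumor than in any given anti-PD-1 alone, and none of the 30 members tested was called. No gene of the 13736 tested was called either (0%) in limma, with 3 members and 1185 genes at an unadjusted p below 0.05. That member count ranged from 2 to 7 when a tumor was left out. It was 7, beside 1069 genes, without DOX/anti-PD-1 replicate 3, and 5, beside 1017 genes, without anti-PD-1 replicate 1. Groups did not overlap with higher levels for 5 of 30 members, against 11.1% of all genes tested, and with lower levels for 2, against 3.84%. Beside Cldn4, Cldn5 and Tjp3, the higher ones included F11r, and the lower ones included Cldn34c1, whose level is uncertain, both named after their values were seen. The median log2 fold change was 0.19 over the members and 0.11 over all genes tested.

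Cldn4 encodes a sealing claudin that limits sodium passage. Its levels were 25.2, 30.8 and 48.0 TPM after anti-PD-1 alone, against 89.6, 56.6 and 72.0 TPM after both agents. The lowest tumor with doxorubicin lay above the highest without it. The log2 fold change was 1.07 ± 0.30 (SE, n = 3 per group, limma adjusted p = 0.479), with an exact permutation p = 0.1. Under the control antibody the Cldn4 levels were 29.4, 46.3 and 46.2 TPM, against 36.2, 90.0 and 114 TPM with doxorubicin. There the groups overlapped through DOX/IgG1 replicate 1, at a log2 fold change of 0.84 ± 0.42 (SE, n = 3 per group, limma adjusted p = 0.69). Without that tumor it was 1.33 (limma adjusted p = 0.127).

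Tjp3, the scaffold ZO-3 of epithelial junctions, was at 12.2, 8.59 and 11.6 TPM after anti-PD-1 alone, against 20.7, 20.1 and 16.6 TPM after both agents, and its level is uncertain through Apba3. The groups did not overlap, at a log2 fold change of 0.78 ± 0.29 (SE, n = 3 per group, limma adjusted p = 0.531). Cldn5, the claudin of endothelial tight junctions, was at 1.17, 1.80 and 1.21 TPM after anti-PD-1 alone, against 4.02, 6.32 and 3.64 TPM after both agents. Its groups did not overlap either, at a log2 fold change of 1.22 ± 0.42 (SE, n = 3 per group, limma adjusted p = 0.504). Of the 9 endothelial markers 8 had a positive log2 fold change, with a median of 0.33, and none was called in limma, with 1 at an unadjusted p below 0.05. Their summed level, with Pecam1 the most abundant and no marker at 0, was 135, 123 and 125 TPM after anti-PD-1 alone, against 178, 201 and 128 TPM after both agents. The part of vessel content in the Cldn5 levels was not tested. Under the control antibody the groups overlapped for both Tjp3 and Cldn5. The log2 fold change of DOX/IgG1 against IgG1 was 0.053 ± 0.30 for Tjp3 (SE, n = 3 per group, limma adjusted p = 0.977). For Cldn5 it was 0.19 ± 0.54 (SE, n = 3 per group, limma adjusted p = 0.947).

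Beside Cldn4, Cldn5 and Tjp3, all 7 fibroblast, all 7 basal or myoepithelial and all 6 adipocyte genes had a positive log2 fold change, with medians of 0.66, 0.47 and 1.43, as had 6 of 7 tested leukocyte genes and 59.98% of all genes tested. At an unadjusted p below 0.05 there were 4, 3, 5 and 0 of them, and the summed fibroblast level, with Col1a1 the most abundant, was 928, 847 and 684 TPM after anti-PD-1 alone, against 1061, 1408 and 1582 TPM after both agents. For the basal or myoepithelial list, led by Acta2, it was 183, 285 and 265 TPM against 346, 423 and 531 TPM, and for adipocytes, led by Cfd, 143, 94.9 and 159 TPM against 797, 277 and 222 TPM. These sums did not overlap between the groups, and the 4 epidermis genes tested had a negative log2 fold change, 2 with an unadjusted p below 0.05 and none called, with summed levels, led by Krt10, of 8.14, 31.2 and 25.7 TPM against 9.19, 3.95 and 4.24 TPM. Beside Cldn4 and Tjp3, luminal genes, of which 3 were above and 5 below 0 with a median of -0.11, and milk genes, with 4 of 6 below 0 and a median of -0.67, had 1 (Krt19, 0.99, groups not overlapping) and 2 at an unadjusted p below 0.05. Their sums overlapped, at 3569, 2636 and 2945.5 TPM against 3430.4, 3233 and 2686 TPM for luminal genes and at 6473, 10359 and 7400.4 TPM against 6040.4, 8373 and 2880 TPM for milk genes. None was called in limma, and the part of these cells in the Cldn4, Cldn5 and Tjp3 levels was not tested.

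**Figure D2:**
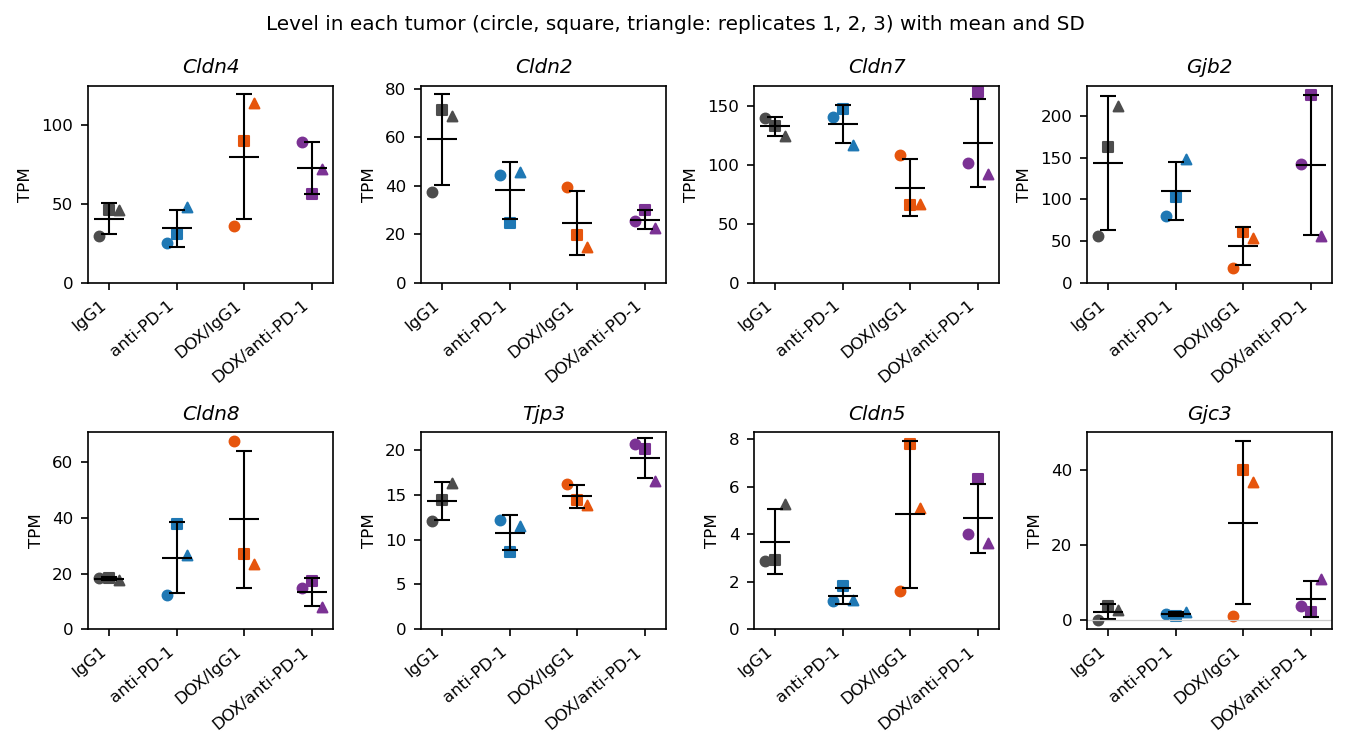
Level in TPM of 8 junction genes in each tumor, with the mean and SD of each group of 3. Cldn4 is higher and Cldn2 lower with doxorubicin on average, while DOX/IgG1 replicate 1 (circle) lies within the range of the tumors without doxorubicin for both.

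Over both antibodies the doxorubicin difference was read from 6 against 6 tumors, with antibody as a covariate. Cldn4 and Gjc3 were higher and Cldn2 and Cldn7 lower at an unadjusted p below 0.05 in limma, and none of the 32 members tested was called. In all 3 of 14735 genes were called (0.0204%), each higher, and by name, seen afterwards, Gas6, St3gal4 and Col27a1. When each of the 12 tumors was left out in turn these were called 5, 6 and 5 times, with limma adjusted p up to 0.253. The 4 members at an unadjusted p below 0.05 stand beside 12% of all genes tested, a share near theirs. This count of members was 2 without DOX/IgG1 replicate 2 or 3, beside 1525 and 1494 genes. It was 6 without IgG1 replicate 3 or DOX/anti-PD-1 replicate 2, beside 1722 and 1785 genes. The median log2 fold change was -0.006 over the members and 0.12 over all genes tested.

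For Cldn4 the log2 fold change was 0.96 ± 0.27 (SE, 95% interval 0.39 to 1.53, limma adjusted p = 0.21), and exchanging tumors within each antibody gave an exact permutation p = 0.025, where 0.005 is the smallest possible. Cldn2 had -0.89 ± 0.28 (SE, limma adjusted p = 0.241) and an exact permutation p = 0.03. For Cldn7 these were -0.48 ± 0.19 (SE, limma adjusted p = 0.335) and an exact permutation p = 0.045. The call for Cldn4 turned on DOX/IgG1 replicate 1, whose 36.2 TPM lay among the levels without doxorubicin. Without that tumor the Cldn4 difference was 1.19 (limma adjusted p = 0.0304) and was called, as was that of Gjc3 at 2.33 (limma adjusted p = 0.0813), while 212 genes were called in all. Leaving out any of the other 11 tumors called no member in this comparison.

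The Cldn4 and Cldn3 genes are neighbors on chromosome 5, with 39279 bases between them. The Cldn3 difference was -0.081 ± 0.23 (SE, 95% interval -0.56 to 0.40), against 0.96 estimated for Cldn4, with an interval from 0.39 to 1.53. These intervals overlap narrowly, and whether the doxorubicin difference differs between the neighbors was not tested. The 250 bases before each start are shown because these neighbors differ in level and have unlike estimates. They are RefSeq sequence of GRCm38.p6, at chr5:134985964-134986213 on the plus strand for Cldn3 and chr5:134946935-134947184 on the minus strand for Cldn4. Capitals mark the GC box GGGCGG, the TATA box TATAAA or the E-box CAGGTG on either strand.
Cldn3: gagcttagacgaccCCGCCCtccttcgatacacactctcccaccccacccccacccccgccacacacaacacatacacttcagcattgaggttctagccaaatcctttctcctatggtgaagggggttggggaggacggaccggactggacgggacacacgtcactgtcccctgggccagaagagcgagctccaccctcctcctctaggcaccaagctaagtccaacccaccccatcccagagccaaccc
Cldn4: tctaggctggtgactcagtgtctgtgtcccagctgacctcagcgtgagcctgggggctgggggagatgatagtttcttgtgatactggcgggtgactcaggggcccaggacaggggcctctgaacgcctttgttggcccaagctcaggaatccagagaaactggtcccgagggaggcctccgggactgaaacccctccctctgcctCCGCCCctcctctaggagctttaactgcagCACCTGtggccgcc
Each holds 1 GC box, found in 32.7% of the 32851 promoters of this length, and neither holds TATAAA, found in 12.4%. Cldn4 also holds 1 E-box, found in 17.2%. A match describes letters only.

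None of the scaffolds and partners described here had an interval that reached 1 log2 unit in the 12-tumor comparison. Tjp1, the scaffold ZO-1, had a log2 difference of -0.18 with a 95% interval from -0.65 to 0.30, and Ocln, which encodes occludin, had -0.20 with an interval from -0.76 to 0.36. For F11r, the adhesion molecule JAM-A, the interval ran from -0.33 to 0.37. Marveld2, tricellulin of tricellular contacts, and Cgn, the cytoplasmic linker cingulin, had intervals from -0.62 to 0.30 and from -0.40 to 0.52, and Tjp3 had one from -0.033 to 0.86. In DOX/IgG1 against IgG1 tumors, with 3 a group, the intervals of these genes were wider. That of Ocln ran from -1.53 to 0.29 and that of Tjp1 from -1.08 to 0.26. Without DOX/IgG1 replicate 1 the Ocln value there went from -0.62 to -1.05 (limma adjusted p = 0.217). In DOX/anti-PD-1 against anti-PD-1 tumors the Ocln interval ran from -0.33 to 0.769, not wider than over the 12 tumors. The estimates for F11r and Cgn were near 0 and changed sign when tumors were scaled by the median of ratios, which moved the median of all genes by -0.099.

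**Figure D3:**
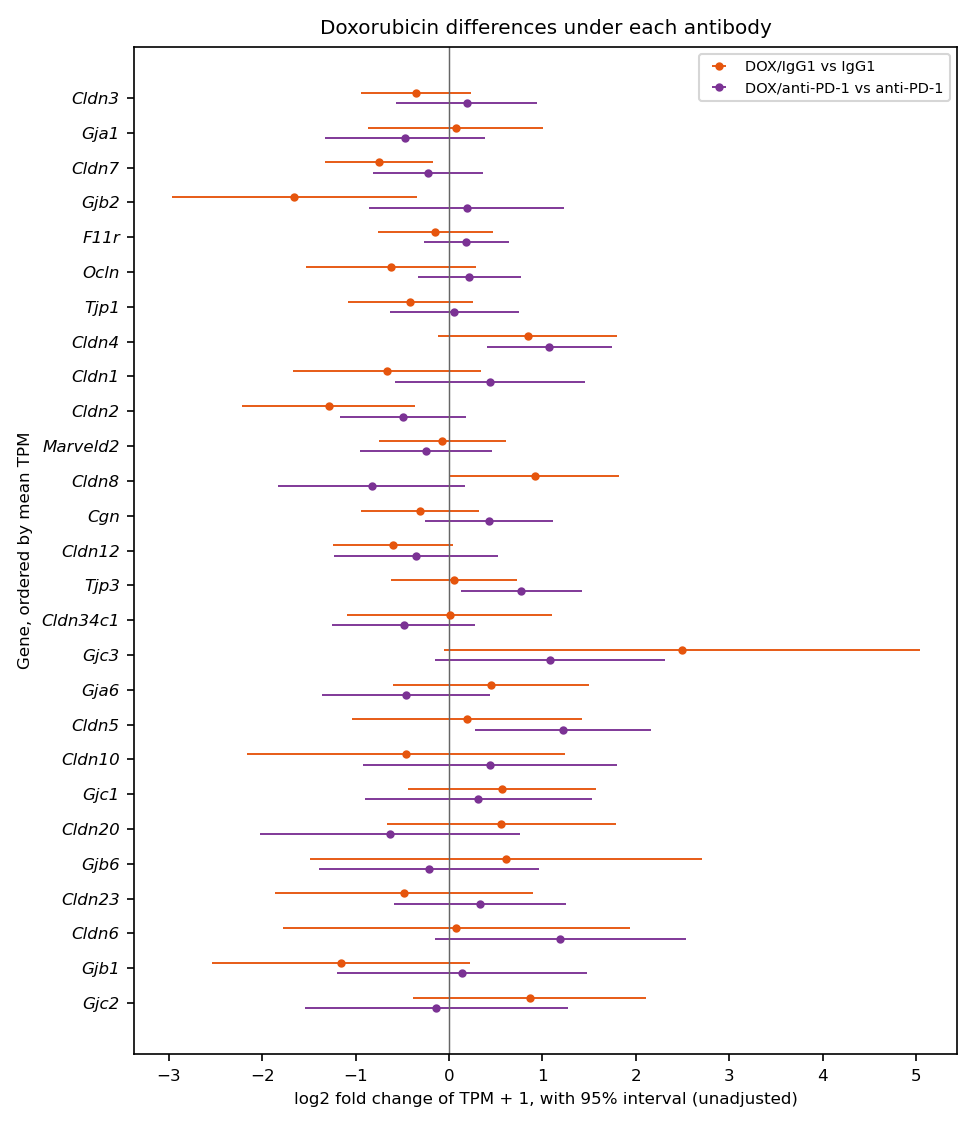
Log2 fold change of TPM + 1 with its unadjusted 95% interval for 27 members tested in both doxorubicin comparisons, which share no tumor. Most intervals include 0, and the estimate for Cldn4 is above 0 under both antibodies, with an interval that includes 0 under IgG1.

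Gjc3, a connexin of myelinating glia, had the largest log2 difference of the 32 members tested over the 12 tumors, 1.79 ± 0.69 (SE, limma adjusted p = 0.329), with an exact permutation p = 0.09. It was at 39.9 and 36.8 TPM in DOX/IgG1 replicates 2 and 3, at 11.1 TPM in DOX/anti-PD-1 replicate 3, and at 3.80 TPM or less in the other 9 tumors, of which IgG1 replicate 1 was listed at 0. In DOX/IgG1 against IgG1 tumors its log2 fold change was 2.49 ± 1.12 (SE, n = 3 per group, limma adjusted p = 0.652). Without DOX/IgG1 replicate 1, at 1.11 TPM, that was 3.90 (limma adjusted p = 0.0595) and was called, the 1 member among 122 genes called.

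S100b of the Schwann cell list was highest in the same 3 tumors as Gjc3, at 25.7, 25.5 and 10.4 TPM. The myelin gene Prx was not highest there, at 1.97, 1.15 and 2.70 TPM, and it was above 0 in each of the 12 tumors. Of the 7 genes 5 had a positive log2 difference over the 12 tumors, and none was called in limma, with 3 at an unadjusted p below 0.05. The summed level of the list was 119.5, 122 and 116 TPM in these tumors and between 68.5 and 122 TPM in the others, with Sox10 the most abundant gene at a log2 difference of -0.29. The other 6 genes, a sum taken after the values were seen, added up to 69.8, 82.1 and 73.3 TPM in the 3 tumors with the highest Gjc3 and to between 20.3 and 44.7 TPM in the other 9. These did not overlap, and the part of nerve in the Gjc3 levels was not tested.

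Of 12 relations of members with marker lists over the 12 tumors, that of Gjc3 with the Schwann cell score had Pearson r = 0.74 (permutation p = 0.00536, adjusted p = 0.0643) and Spearman rho = 0.83 (permutation p = 0.00128, adjusted p = 0.0154). Without the 2 tumors farthest from the median score r was 0.72 (permutation p = 0.015, adjusted p = 0.147), and with values centred on group means it was 0.69 (permutation p = 0.0124, adjusted p = 0.148). Cldn5 with endothelium had r = 0.64 (permutation p = 0.0271, adjusted p = 0.163) and rho = 0.50 (permutation p = 0.0984, adjusted p = 0.514). Without the 2 farthest tumors this r was 0.40 (permutation p = 0.261), and with values centred on group means it was 0.58 (permutation p = 0.0437, adjusted p = 0.262). The other 10 relations had adjusted p of 0.44 or more for r and 0.514 or more for rho. Of these, Cldn3 with luminal epithelium went from r = 0.38 (permutation p = 0.231) to 0.69 (permutation p = 0.0245, adjusted p = 0.147) without the 2 farthest tumors.

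The antibody comparisons asked what PD-1 blockade added, and each shares its tumors with a doxorubicin comparison. Without doxorubicin, Cldn5 was lower with anti-PD-1 than with IgG1, and none of the 31 members or 13692 genes tested was called (0%) in limma, with 1 member and 630 genes at an unadjusted p below 0.05. That member was Cldn5, at 2.86, 2.90 and 5.25 TPM with IgG1 against 1.17, 1.80 and 1.21 TPM with anti-PD-1. Its groups did not overlap, at a log2 fold change of -0.94 ± 0.42 (SE, n = 3 per group, limma adjusted p = 0.996). The count of members at an unadjusted p below 0.05 in limma went from 1 to 4 without IgG1 replicate 1. That of all genes then went from 630 to 919. The member count was 0 without anti-PD-1 replicate 2 or 3. It was also 0 with a pseudocount of 0.1, a mean filter, the replicate block or all 12 tumors in 1 fit. Groups did not overlap with lower levels for 3 of 31 members, among them Cldn5 and, named after its values were seen, F11r, against 6.24% of all genes tested. With higher levels there were 0 members, against 3.64%. Of the 9 endothelial markers 7 had a negative log2 fold change. The summed level of all 9 did not overlap, at 137, 141 and 221 TPM with IgG1 against 135, 123 and 125 TPM with anti-PD-1. The part of these markers in the Cldn5 levels was not tested. Beside Cldn5, all 8 luminal, all 7 fibroblast, all 6 adipocyte and 6 of 7 tested leukocyte genes had a negative log2 fold change too, with medians of -0.21, -0.37, -0.69 and -0.46, while 47.2% of all genes tested had a positive one. At an unadjusted p below 0.05 there were 1, 1, 0 and 1 of them, the fibroblast one being Col1a1, at 432, 527 and 745 TPM with IgG1 against 238, 234 and 132 TPM, and the summed fibroblast level, led by Col1a1, did not overlap, at 1194, 1149 and 1804 TPM with IgG1 against 928, 847 and 684 TPM. The luminal, adipocyte and leukocyte sums overlapped. They were 4065, 3278 and 3807 against 3569, 2636 and 2945.5 TPM for luminal genes, led by Epcam. For adipocytes, led by Cfd, they were 99.3, 306 and 229 against 143, 94.9 and 159 TPM. For leukocytes, led by Lyz2, they were 479, 416 and 554 against 321, 466 and 328 TPM. All 3 tested epidermis genes were higher on average, with a median of 2.12 and an unadjusted p below 0.05 each, and the summed level of the list, led by Krt10, was 0, 3.09 and 1.66 TPM against 8.14, 31.2 and 25.7 TPM. Of the other lists, 6 of 7 Schwann cell and 5 of 7 basal or myoepithelial genes were negative and 4 of 6 milk genes positive, with 0, 0 and 1 at an unadjusted p below 0.05. No gene of these lists was called in limma, and their part in the levels of Cldn5 and F11r was not tested.

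With doxorubicin, Cldn8 was lower and Gjb2 higher on average in DOX/anti-PD-1 than in DOX/IgG1 tumors. None of 31 members or 13946 genes was called (0%) in limma, with 2 members and 655 genes at an unadjusted p below 0.05. Cldn8 was at 14.9, 17.2 and 7.85 TPM after both agents, each below the 3 DOX/IgG1 tumors. The log2 fold change was -1.40 ± 0.47 (SE, n = 3 per group, limma adjusted p = 0.988), and -0.94 without DOX/IgG1 replicate 1 (limma adjusted p = 0.662). Gjb2 was at 142, 225 and 55.9 TPM after both agents, and its groups overlapped through the lowest of these. Its log2 fold change was 1.62 ± 0.58 (SE, n = 3 per group, limma adjusted p = 0.988), and without DOX/IgG1 replicate 1 it was 1.08 (limma adjusted p = 0.693), with an unadjusted p above 0.05. Without that tumor 5 members and 1051 genes had an unadjusted p below 0.05 in limma. Beside Cldn8 these members were Cldn7 (0.775), Ocln (0.789), Gjc3 (-2.805) and Gjb6 (-1.38), each at a limma adjusted p of 0.254 or more. Groups did not overlap with lower levels for 2 members, among them Cldn8, against 5.95% of all genes tested, and with higher levels for 2, Tjp3 and Cgn, against 4.27%.

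Beside Gjb2 and Cldn8, all 6 milk genes had a positive log2 fold change, with a median of 1.69, and 4 an unadjusted p below 0.05. Their summed level, led by Csn3, was 6040.4, 8373 and 2880 TPM after both agents, against 909, 3216 and 2499 TPM with DOX/IgG1. All 5 salivary genes had a negative one, 3 with an unadjusted p below 0.05, and Smr3a and Bpifa2 were listed at 0 in each DOX/anti-PD-1 tumor. Their summed level, led by Aqp5, was 382, 369 and 130.2 TPM after both agents, against 304, 349 and 393 TPM. Beside the same members all 7 tested leukocyte genes had a negative log2 fold change as well, with a median of -0.30, and 6 of 7 basal or myoepithelial and 5 of 6 adipocyte genes a positive one, against 46.3% of all genes tested, with 0 at an unadjusted p below 0.05. The summed leukocyte level, led by Lyz2, was 289, 519 and 534 TPM after both agents, against 472, 563 and 612 TPM with DOX/IgG1. No gene of these lists was called in limma with all settings as described, but Smr3a and Bpifa2 were called with median of ratios scaling and with all 12 tumors in 1 fit, and Bpifa2 without DOX/IgG1 replicate 1. The part of these cells in the Cldn8 and Gjb2 levels was not tested.

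Whether the doxorubicin difference itself differed between the antibodies was tested by the interaction. Cldn8 and Gjb2 were the 2 members at an unadjusted p below 0.05 in limma, beside 4.71% of all genes tested. The interaction was -1.74 ± 0.64 (SE, log2 scale) for Cldn8 and 1.84 ± 0.82 (SE, log2 scale) for Gjb2, both at a limma adjusted p = 0.993. No member of 32 was called, against 1 of 14735 genes (0.00679%), which was Bpifa2. With 1 of the 12 tumors left out that gene was called 1 time, without DOX/IgG1 replicate 1. The count of members at an unadjusted p below 0.05 rested on single tumors too, with 0 without anti-PD-1 replicate 2, 5 without DOX/anti-PD-1 replicate 3 and 6 without DOX/IgG1 replicate 1, where that of all genes went from 694 to 951. These 6 were Cldn8 (-1.28), Cldn7 (0.76), Cldn2 (1.18), Cldn1 (1.48), Ocln (1.27) and Gjc3 (-2.81), each at a limma adjusted p of 0.671 or more, while Gjb2 at 1.30 was no longer among them. Beside Cldn8 and Gjb2, all 5 tested epidermis and all 5 salivary genes had a negative interaction, with 3 and 2 at an unadjusted p below 0.05, and all 8 luminal and all 6 adipocyte genes a positive one, with 0 and 0, against 49.4% positive of all genes tested. Positive too were 5 of 7 fibroblast, 7 of 9 endothelial, 6 of 7 tested leukocyte, 5 of 7 basal or myoepithelial and 4 of 6 milk genes, with Col1a1 (2.18), Col3a1 (1.00) and the milk gene Csn2 (3.88) at an unadjusted p below 0.05. Of these lists only Bpifa2 was called, and the part of these cells in the Cldn8 and Gjb2 values was not tested.

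The remaining members chosen by rule were lower in level, apart from Cldn1. Gjb6, the neighbor of Gjb2 on chromosome 14, had a median of 2.28 TPM. Gjb5 was listed at 0 in all tumors but anti-PD-1 replicate 2, at 0.73 TPM. The vessel connexins Gja4 and Gja5 had medians of 0.88 and 0.435 TPM, and Gjc1, connexin 45, one of 2.58 TPM. Cldn1, a barrier claudin, had a median of 38.1 TPM and a log2 difference with doxorubicin of -0.11 ± 0.36 (SE, 6 against 6 tumors).

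No gene of the other junction lists was called in limma in any of the 6 comparisons. In the 12-tumor doxorubicin comparison 8 of 31 tested genes of the apical junction and polarity list had an unadjusted p below 0.05, as had 1 of 13 adherens junction genes, 6 of 13 tested desmosome genes and 0 of 3 pannexins, beside 12% of all genes tested. The desmosome genes, which anchor keratin filaments, had a median log2 fold change of -0.39, with 9 of 13 below 0, but of the 6 at an unadjusted p below 0.05 Pkp4 (0.76) and Evpl (0.65) were above 0. Of 5 tested epidermis genes, a list that shares 1 gene with the desmosome list, 4 were below 0, with a median of -0.50, none was called in limma and 0 had an unadjusted p below 0.05, and their part was not tested. The most abundant genes of the apical list by mean TPM were Epcam (729), Cxadr (193) and Dlg1 (176), and those of the adherens list, which holds the cadherin and catenin genes, were Ctnnb1 (464), Cdh1 (356) and Afdn (255). For desmosomes they were Perp (205), Dsp (82.6) and Dsg2 (80.9), and for pannexins Panx1 (5.66), Panx3 (0.82) and Panx2 (0.65).

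The summed skeletal muscle markers ranged from 0.27 to 732 TPM, the adipocyte markers from 94.9 to 802 TPM and the epidermis markers from 0 to 31.2 TPM. In the 12-tumor comparison all 7 basal or myoepithelial, 5 of 7 fibroblast, 6 of 7 tested leukocyte and 6 of 6 adipocyte genes had a positive log2 fold change with doxorubicin, against 63.3% of all genes tested, and none of these was called in limma, with 0, 1, 0 and 1 at an unadjusted p below 0.05. Lower were all 6 milk secretion genes, with a median of -1.17 and 4 at an unadjusted p below 0.05, and 6 of 8 luminal genes, with a median of -0.21 and 2 at an unadjusted p below 0.05, Epcam (-0.54) and Krt19 (0.82). Of the 5 salivary genes 4 were above 0, with a median of 1.37, and 4 had an unadjusted p below 0.05, Aqp5 (-0.70) being the lower one, and no gene of these 3 lists was called in limma. Gja1, which stromal and myoepithelial cells express, had r = 0.0099 with the basal or myoepithelial score (permutation p = 0.976, rho = 0.007, permutation p = 0.991). With the fibroblast score it had r = -0.43 (permutation p = 0.159, rho = -0.37, permutation p = 0.235).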

How the data were processed

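The authors' upstream steps were alignment to mm10 by STAR and gene quantification by RSEM, and they deposited log2 values of TPM + 1 for 21960 genes per tumor, here taken back to TPM. Each comparison used limma 3.58.1 in R 4.3.3 (lmFit, eBayes with trend, two-sided) on log2(TPM + 1), which understates the change of low genes. Genes with at least 1 TPM in at least 3 tumors of the fit were tested, with Benjamini-Hochberg adjustment over all of them. Single members also had a two-sided exact permutation test over tumors. Relations used 100000 resamples in SciPy 1.17.1, and a score was the mean log2(TPM + 1) of a list. The limma fits were also run on simulated data, with shifts added only to well expressed genes and larger than most member differences here. That run does not bear on smaller differences, low genes or a tumor that stands apart.

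The members and lists were chosen with earlier results of these data known. Members named by rule are those called, up to 4 rises and 4 falls in each doxorubicin comparison and up to 2 each way in each antibody comparison at an unadjusted p below 0.05 (without overlap where 6 tumors were compared), the 10 most abundant, the scaffolds and partners, vessel and stroma genes, Gjb2 and Cldn2, which the study lists, and family neighbors in the genome. Of each junction list the 3 most abundant are named. Some genes that the rule or the lists take are not reported here by name, in the figures or under the alternatives, and they stay in all counts, sums and scores. Positions are from GENCODE. Alternatives changed the pseudocount, filter, scaling, fold limit, tumors fitted and replicate block, and left out each tumor.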

Additional observations from a re-analysis of the deposited data

How the results depend on the processing

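Groups of 3 tumors, unknown depth and bulk tissue limit these comparisons: the SE of a member's log2 fold change was up to 1.12 in DOX/IgG1 vs IgG1. Scaling by the median of ratios moved the median of all genes by -0.108 in DOX/anti-PD-1 vs anti-PD-1. The cause of the changes with settings was not tested. No member was called in any of the 6 comparisons under a pseudocount of 0.1 or 5, no filter or a mean filter. The same held for median of ratios scaling, no fold limit and the replicate block. In the comparisons of 3 against 3 tumors, 1 fit of all 12 tumors called no member either. For DOX/IgG1 vs IgG1, the number of genes called was 5, and between 0 and 122 when a tumor was left out, 2 with replicate block. For DOX/anti-PD-1 vs anti-PD-1, the number of genes called was 0, and between 0 and 4 when a tumor was left out. For anti-PD-1 vs IgG1, the number of genes called was 0, and between 0 and 4 when a tumor was left out. For DOX/anti-PD-1 vs DOX/IgG1, the number of genes called was 0, and between 0 and 4 when a tumor was left out, 3 with median of ratios scaling, 2 with all 12 tumors in one fit. For doxorubicin over both antibodies, the number of genes called was 3, and between 0 and 212 when a tumor was left out, 8 with pseudocount of 5, 14 with median of ratios scaling, 1 with replicate block. For interaction of doxorubicin and anti-PD-1, the number of genes called was 1, and between 0 and 1 when a tumor was left out, 0 with pseudocount of 0.1, 3 with no filter on low values, 0 with mean of at least 1 TPM, 0 with median of ratios scaling, 0 with replicate block. Members called ranged from 0 to 1 when a tumor was left out of DOX/IgG1 vs IgG1 and from 0 to 2 for doxorubicin over both antibodies, the upper values without DOX/IgG1 replicate 1. The count of relations at an adjusted p below 0.1 went from 1 to 0 both with centred values and without the 2 farthest tumors. The sign turned with median of ratios scaling for Tjp3 (-0.046, DOX/IgG1 vs IgG1), Gja1 (-0.032, DOX/IgG1 vs IgG1), Tjp1 (-0.058, DOX/anti-PD-1 vs anti-PD-1), Cldn4 (0.011, DOX/anti-PD-1 vs DOX/IgG1), F11r (0.012, DOX/anti-PD-1 vs DOX/IgG1), Cldn8 (-0.062, doxorubicin over both antibodies), F11r (-0.093, doxorubicin over both antibodies), Cgn (-0.049, doxorubicin over both antibodies). The sign turned with pseudocount of 5 for Gjc3 (-0.072, anti-PD-1 vs IgG1). The sign turned with pseudocount of 0.1 for Gjc1 (-0.010, DOX/anti-PD-1 vs DOX/IgG1), Gjb6 (0.27, DOX/anti-PD-1 vs DOX/IgG1), Gja4 (0.025, interaction of doxorubicin and anti-PD-1). The sign turned with values centred on group means for Cldn7 with luminal epithelium (-0.21), Cldn19 with Schwann cells (0.094), Cldn2 with luminal epithelium (-0.18). The sign turned without the 2 tumors farthest from the median of the marker score for Cldn4 with luminal epithelium (-0.39), Gja4 with endothelium (-0.39), Cldn19 with Schwann cells (0.21). Leaving out a tumor turned the sign or brought a call for these members in DOX/IgG1 vs IgG1, with log2 ranges Cldn5 -0.19 to 0.69, Tjp3 -0.053 to 0.15, Gjc3 1.76 to 3.90, Gja1 -0.33 to 0.36, F11r -0.37 to 0.067, Marveld2 -0.32 to 0.079, Gja4 -0.83 to 0.26, Gjb6 -0.057 to 1.58. Leaving out a tumor turned the sign or brought a call for these members in DOX/anti-PD-1 vs anti-PD-1, with log2 ranges Cldn3 -0.082 to 0.58, Gjb2 -0.25 to 0.74, Tjp1 -0.23 to 0.37, Marveld2 -0.54 to 0.044, Gjc1 -0.025 to 0.71, Gjb6 -0.67 to 0.12. Leaving out a tumor turned the sign or brought a call for these members in anti-PD-1 vs IgG1, with log2 ranges Cldn7 -0.049 to 0.12, Gjc3 -0.69 to 0.44, Gja1 -0.62 to 0.010, Gjb2 -0.80 to 0.16, Marveld2 -0.14 to 0.25, Gjc1 -0.13 to 0.60, Gjb6 -0.26 to 0.97. Leaving out a tumor turned the sign or brought a call for these members in DOX/anti-PD-1 vs DOX/IgG1, with log2 ranges Cldn5 -0.40 to 0.47, Cldn4 -0.50 to 0.32, Cldn2 -0.12 to 0.57, Cldn3 -0.10 to 0.56, F11r -0.23 to 0.21, Tjp1 -0.13 to 0.46, Marveld2 -0.37 to 0.22, Gjc1 -0.33 to 0.39, Gjb6 -1.38 to 0.22. Leaving out a tumor turned the sign or brought a call for these members in doxorubicin over both antibodies, with log2 ranges Cldn8 -0.26 to 0.29, Cldn4 0.82 to 1.19, Gjc3 1.39 to 2.33, Cldn3 -0.23 to 0.065, F11r -0.061 to 0.13, Cldn1 -0.36 to 0.082, Cgn -0.051 to 0.16, Gjb6 -0.14 to 0.58. Leaving out a tumor turned the sign or brought a call for these members in interaction of doxorubicin and anti-PD-1, with log2 ranges Cldn4 -0.26 to 0.56, Marveld2 -0.47 to 0.12, Gja4 -0.55 to 0.54, Gjc1 -0.59 to 0.14.

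The replicate numbers share no mouse or litter in the labels, and same-numbered tumors did not deviate together in every pair of any comparison, with the lowest correlations 0.011, -0.061, -0.104, -0.081. By deviations from group means, 8 of 12 tumors correlated best, among the tumors of the other groups, with one of their own number. Whether the numbers mark a shared batch was not tested, and the main fits used no block. With the replicate block the genes called were 2 for DOX/IgG1 vs IgG1, 0 for DOX/anti-PD-1 vs anti-PD-1, 0 for anti-PD-1 vs IgG1, 0 for DOX/anti-PD-1 vs DOX/IgG1, 1 for doxorubicin over both antibodies, 0 for interaction of doxorubicin and anti-PD-1. Not called with it, at these limma adjusted p, were Smr3a (0.163, DOX/IgG1 vs IgG1), Bpifa2 (0.113, DOX/IgG1 vs IgG1), Saa2 (0.113, DOX/IgG1 vs IgG1), Saa1 (0.113, DOX/IgG1 vs IgG1), Gas6 (0.108, doxorubicin over both antibodies), Col27a1 (0.108, doxorubicin over both antibodies), Bpifa2 (0.276, interaction of doxorubicin and anti-PD-1). Other settings that ended such a call were pseudocount of 0.1 for Smr3a (adjusted p = 0.135, DOX/IgG1 vs IgG1), pseudocount of 5 for Bpifa2 (adjusted p = 0.208, DOX/IgG1 vs IgG1), all 12 tumors in one fit for Hist1h2af (adjusted p = 0.222, DOX/IgG1 vs IgG1), no filter on low values for Col27a1 (adjusted p = 0.156, doxorubicin over both antibodies), median of ratios scaling for Gas6 (adjusted p = 0.0801 at a log2 difference of 0.94, doxorubicin over both antibodies), pseudocount of 0.1 for Bpifa2 (adjusted p = 0.991, interaction of doxorubicin and anti-PD-1), pseudocount of 5 for Bpifa2 (adjusted p = 0.197, interaction of doxorubicin and anti-PD-1), mean of at least 1 TPM for Bpifa2 (adjusted p = 0.183, interaction of doxorubicin and anti-PD-1), median of ratios scaling for Bpifa2 (adjusted p = 0.102, interaction of doxorubicin and anti-PD-1), all in limma.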
